A study of Oryza sativa with 6 samples.

Results

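The miR162 and miR168 families of rice leaves are described here across plants with and without glyphosate. The members were all names in the table that carry the number of miR162 or miR168, from any species and either arm of the hairpin. The rule found 7 of 479 distinct names, of which 4 belonged to miR162 and 3 to miR168. The 7 names carried 6 distinct sequences.

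The libraries were made from leaf RNA of CA21, a glyphosate-tolerant rice germplasm that carries no transgene and was bred by mutagenesis and crossing. Its seedlings were given a glyphosate spray of 2 mg per ml at the third-leaf stage (GLY, 3 libraries) or were left unsprayed as controls (CK, 3 libraries). Both groups were CA21, so the comparison holds no sensitive plants. Whether replicate libraries stem from different plants is not stated in the labels, and the p-values cover the spread among the sequenced libraries, which may be technical.

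The values are the authors' normalized counts, called normalized values below, and they are not whole numbers. The estimated number of miRNA reads was 97902 to 176515 in the GLY libraries and 154436 to 304753 in the CK libraries. Across the 251 tested names GLY 2 stood apart from its group. It correlated at 0.640 with GLY 1 and 0.557 with GLY 3 (log2 values), whereas GLY 1 and GLY 3 correlated at 0.928 and the CK libraries at 0.939 to 0.972. Fold changes of the tested member names and family sums, shares of the summed value and log2 ratios are therefore also given without GLY 2. Shares of valid reads, hairpin counts, correlations between names and the calls in the list of other miRNAs are given with GLY 2 included only. The labels give the tissue as leaf, and markers of another tissue were the triggers of phasiRNAs in anthers, miR2118 and miR2275, with 6 names in the table, of which 1 was tested and none was called. The miR2118 names summed to 343, 46.3 and 575 in GLY 1, GLY 2 and GLY 3, against 127, 140 and 99.5 in CK 1, CK 2 and CK 3, and most of this was a 19-nt fragment named osa-MIR2118e-p5_2ss13TA19CT. The rice mature names osa-miR2118e, osa-miR2118d_1ss17TA and osa-miR2118o_1ss1CT were listed at 0 in all GLY libraries and at 4.82 to 10.1 in the CK libraries. The soybean-named gma-miR2118a-3p_R+1 was listed at 25.8 in GLY 3 and at 0 in all other libraries. The miR2275 name was listed at 0 in all libraries except GLY 3 (10.3). Their part in the results was not tested.

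In plants, DCL1 cuts miRNA hairpins into short duplexes, and AGO1 takes up a strand of the duplex and uses it to find target transcripts. Both proteins are themselves under miRNA control. The miR162 family targets the DCL1 transcript and the miR168 family targets AGO1 transcripts, so each family acts on the machinery that makes or uses it. Rice has several AGO1 genes, annotated as AGO1A, AGO1B, AGO1C and AGO1D in the RefSeq gene table of the assembly ASM3414082v1. In rice, AGO18 also binds miR168 and thereby relieves AGO1 during virus infection.

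The sequences are shown because the family, the arm and the base differences between members are read from them. They are written 5′ to 3′ as DNA letters from the deposited table, and capitals mark positions 2 to 8, the seed.
osa-miR168a-5p: tCGCTTGGtgcagatcgggac
aly-miR168a-5p: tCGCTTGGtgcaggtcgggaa
osa-miR168a-3p_L-3: cCCGCCTTgcaccaagtgaat
osa-miR162a: tCGATAAAcctctgcatccag
osa-miR162b: tCGATAAGcctctgcatccag
osa-MIR162a-p5 and osa-MIR162b-p5: gGGCGCAGtggtttatcgatc

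All 7 names were 21 nt long. The prefix osa stands for rice and aly for Arabidopsis lyrata, and L-3 means that 3 bases at the 5′ end of the miRBase sequence were missing. The mature sequences of the miR162 hairpins differed by a single substitution, A8G from osa-miR162a to osa-miR162b with positions counted from the 5′ end, which lies in the seed. The aly name differed from osa-miR168a-5p by A14G and C21A and had the same seed. No other name in the table had any of these seeds (0 for each member). The first base was T in osa-miR168a-5p, aly-miR168a-5p, osa-miR162a and osa-miR162b, C in osa-miR168a-3p_L-3 and G in the p5 sequence. Rice AGO1 proteins are known to bind mainly small RNAs with a 5′ U, which is written T here. Of all 479 names, 186 (38.8%) began with T, and 31 (6.47%) began with C.

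Computed pairing of the listed arms gave duplexes of the form that DCL1 releases. The p5 sequence paired with osa-miR162a by 17 base pairs with an overhang of 2 nt at both 3′ ends, and it paired with osa-miR162b in the same way. On this basis the miR162 mature sequences, whose names give no arm, were taken as 3p. The strands osa-miR168a-5p and osa-miR168a-3p_L-3 also formed 17 base pairs with overhangs of 2 nt. The aly sequence formed 18 base pairs with that 3p strand.

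The most abundant miR168 name was the strand opposite to the one that targets AGO1. The value of osa-miR168a-3p_L-3 was 10847, 15913 and 18193 in GLY 1, GLY 2 and GLY 3, against 20660, 19615 and 25384 in CK 1, CK 2 and CK 3. The highest GLY library lay below the lowest CK library. The mean was 14985 ± 3760 in GLY and 21886 ± 3074 in CK (SD, n = 3 each), and the log2 fold change was -0.57 ± 0.26 (SE, 95% interval -1.20 to 0.06), which was not called (limma adjusted p of 0.217). It ranked first among all names in GLY 2, GLY 3 and all CK libraries. In GLY 1 it ranked 3, after osa-miR1432-5p_R+1 (12752) and osa-miR396e-5p (12372).

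The AGO1-targeting strand osa-miR168a-5p was at 4443, 3399 and 6125 in GLY 1, GLY 2 and GLY 3, against 6810, 6603 and 8029 in CK 1, CK 2 and CK 3. The groups did not overlap here either. The log2 fold change was -0.65 ± 0.28 (SE, 95% interval -1.34 to 0.03) with a limma adjusted p of 0.193, and the difference was not called. Its rank was 11, 14 and 9 in the GLY libraries and 7, 8 and 5 in the CK libraries. The third miR168 name, aly-miR168a-5p, was listed at 0, 11.95 and 22.4 in GLY 1, GLY 2 and GLY 3, against 5.29, 0 and 0 in CK 1, CK 2 and CK 3. These values are worth 8, 13 and 6 estimated reads where they are above 0, and the name did not pass the filter on low values.

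The miR162 mature sequences, which target DCL1, lay below both miR168a strands in every library and overlapped between groups. The value of osa-miR162a was 922, 976 and 587 in GLY 1, GLY 2 and GLY 3, against 878, 1216 and 1278 in CK 1, CK 2 and CK 3. Its lowest library was GLY 3, and GLY 1 and GLY 2 lay between CK 1 and CK 2. The log2 fold change was -0.46 ± 0.32 (SE, 95% interval -1.24 to 0.33) with a limma adjusted p of 0.432. For osa-miR162b the values were 333, 172 and 243 in GLY 1, GLY 2 and GLY 3, against 285, 385 and 416 in CK 1, CK 2 and CK 3. Here GLY 2 was the lowest library and GLY 1 lay above CK 1. The log2 fold change was -0.57 ± 0.36 (SE, 95% interval -1.45 to 0.31) with a limma adjusted p of 0.372.

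The p5 strand of miR162 was scarce. The names osa-MIR162a-p5 and osa-MIR162b-p5 share a sequence and were listed with identical values, 12.8, 5.23 and 6.88 in GLY 1, GLY 2 and GLY 3, against 5.73, 7.01 and 13.5 in CK 1, CK 2 and CK 3. These amounted to 14.5, 3.5 and 4 estimated reads per name in the GLY libraries and 6.5, 8 and 25 in the CK libraries. Neither name passed the filter. With the names of each sequence summed, the strand was tested, with a log2 fold change of -0.08 and a limma adjusted p of 0.943.

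**Figure D1:**
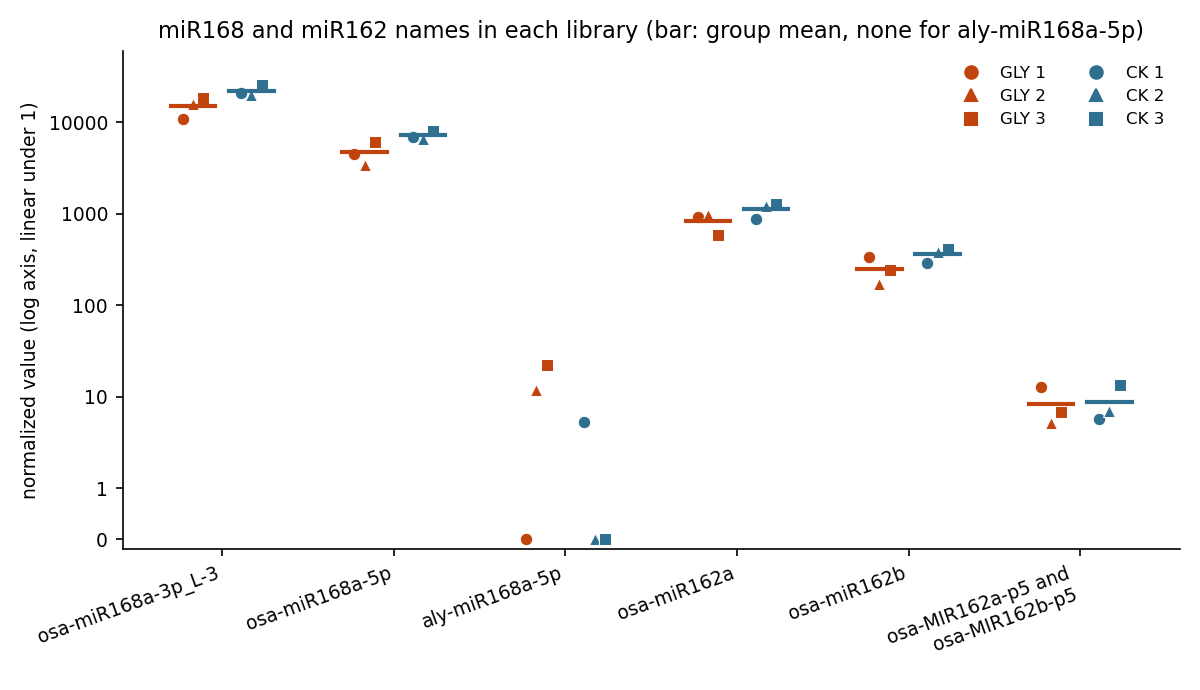
Normalized value (log axis, linear under 1) of each miR168 and miR162 name, with a point per library, GLY left of CK, and a bar at the group mean (none for aly-miR168a-5p). The order is osa-miR168a-3p_L-3 (10847 to 25384), osa-miR168a-5p (3399 to 8029), osa-miR162a (587 to 1278) and osa-miR162b (172 to 416), with the remaining names at 0 to 22.4.

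The order of the levels was the same in all 6 libraries for the 4 abundant names. The lowest library of osa-miR168a-3p_L-3 lay above the highest of osa-miR168a-5p, the lowest of osa-miR168a-5p above the highest of osa-miR162a, and the lowest of osa-miR162a above the highest of osa-miR162b. The p5 sequence and aly-miR168a-5p overlapped and could not be ordered.

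Of the 7 names 4 passed the filter (3 or more libraries at a value of at least 10), and 0 of the 4 had a limma adjusted p below 0.05, the threshold for a call. None was under 0.05 unadjusted (0 of 4). Over all 251 tested names, 11.2% were called (28), of which 19 (7.57% of the tested names) were higher and 9 (3.59%) lower in GLY, and 27.1% were under 0.05 unadjusted. With values scaled by valid reads the split was 11 higher and 1 lower. All 4 log2 fold changes were negative, as were 62.9% of all tested names. Their median was -0.57 beside a median of -0.46 over all tested names, so the difference of the typical name was of similar size. GLY and CK were fully separated for 2 of the 4, osa-miR168a-3p_L-3 and osa-miR168a-5p, both with GLY lower. Over all tested names, 35.9% were separated in either direction and 21.9% with GLY lower. With values scaled to the sum of the table, by median of ratios or by valid reads, the median of the 4 was -0.73, -0.36 and -0.36, beside -0.60, -0.26 and -0.17 over all tested names. The 4 stayed negative and uncalled in each. Without GLY 2 the 4 were still not called, with limma adjusted p values of 0.142 to 0.363, while 125 names of the table were (39 higher, 86 lower). Their log2 fold changes without GLY 2 were -0.63 for osa-miR168a-3p_L-3, -0.45 for osa-miR168a-5p, -0.59 for osa-miR162a and -0.33 for osa-miR162b. The size also rested on other single libraries, with -0.35 for osa-miR168a-3p_L-3 without GLY 1 and -0.23 for osa-miR162a without GLY 3. As the libraries are from leaf tissue, fewer cells of a type and less RNA per cell cannot be told apart.

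**Figure D2:**
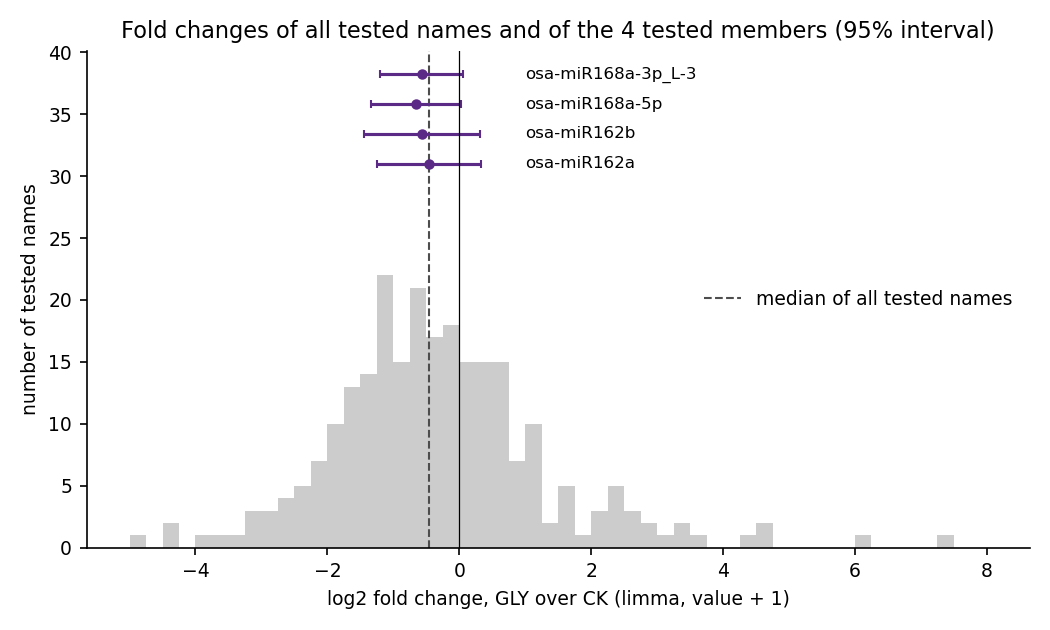
Histogram of the log2 fold change (GLY over CK, limma on value + 1) of the 251 tested names, with the 4 tested members above it as points with 95% intervals, placed at arbitrary heights. The members lie at -0.65 to -0.46, near the dashed median of all names (-0.46), and all 4 intervals include 0.

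Summed by family, miR168 was the most abundant of 139 families in every library. Its sum was 15290, 19324 and 24341 in GLY 1, GLY 2 and GLY 3, against 27476, 26218 and 33414 in CK 1, CK 2 and CK 3. The groups did not overlap, as for 12.2% of the tested families with GLY lower and 26.7% in either direction. The mean was 19651 ± 4534 in GLY and 29036 ± 3843 in CK (SD, n = 3 each). The limma log2 fold change was -0.58 ± 0.22 (SE, 95% interval -1.14 to -0.02), with an unadjusted p of 0.0432 and an adjusted p of 0.185 over 90 tested families, of which 8.89% were called (7.78% higher and 1.11% lower in GLY). The miR162 family ranked 22, 26 and 26 in the GLY libraries and 18, 18 and 16 in the CK libraries. Its mean sum was 1094 ± 226 in GLY and 1504 ± 289 in CK, with overlap, a log2 fold change of -0.46 ± 0.30 (SE, 95% interval -1.19 to 0.27) and a limma adjusted p of 0.529. Neither family was called, and without GLY 2 the log2 fold changes were -0.58 and -0.51 (limma adjusted p of 0.183 and 0.182). Without GLY 3 that of miR162 was -0.28. The median over all tested families was -0.12.

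The share of the library taken by each family was lower in every GLY library than in every CK library. Of the 90 tested families, 17.8% (16, both of these included) were separated in share with GLY lower and 32.2% in either direction. The miR168 family took up 9.85%, 10.9% and 14.5% of the summed value of GLY 1, GLY 2 and GLY 3, against 20.2%, 17.7% and 20.3% of CK 1, CK 2 and CK 3. The mean share was 11.7% ± 2.41 in GLY and 19.4% ± 1.46 in CK (SD, n = 3 each), a difference of -7.66 percentage points with an exact permutation p of 0.1 (two-sided), which is the smallest that 3 against 3 libraries can give. The larger part was osa-miR168a-3p_L-3, with 6.99%, 8.98% and 10.8% in the GLY libraries, against 15.2%, 13.2% and 15.4% in the CK libraries. The strand osa-miR168a-5p had 2.86%, 1.92% and 3.64% in the GLY libraries, against 5.005%, 4.46% and 4.87% in the CK libraries.

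The miR162 family took up 0.825%, 0.653% and 0.5005% of the GLY libraries, against 0.864%, 1.09% and 1.04% of the CK libraries. The difference of means was -0.34 percentage points, and the exact permutation p was again 0.1. GLY 1 lay just below CK 1. Adjusted over the 7 within-library quantities compared here, both p-values were 0.35 (Benjamini-Hochberg on exact permutation p). Without GLY 2 the differences were -7.24 and -0.34 percentage points (exact permutation p of 0.2 each, the smallest that this test can give for these libraries). A lower share and a higher level of the other names cannot be told apart. The families were also set against all valid small RNA reads, with estimated rather than counted reads as the numerator. On this measure the miR168 family was at 0.381%, 0.249% and 0.436% in the GLY libraries, against 0.367%, 0.343% and 0.706% in the CK libraries. The groups overlapped (exact permutation p = 0.6, n = 3 each). The miR162 family was at 0.0319%, 0.0149% and 0.0151% of valid reads in the GLY libraries, against 0.0157%, 0.0212% and 0.0363% in the CK libraries, again with overlap (exact permutation p = 0.5, n = 3 each). The separation of the groups thus held for the share among miRNAs and not for the estimated share of valid reads.

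**Figure D3:**
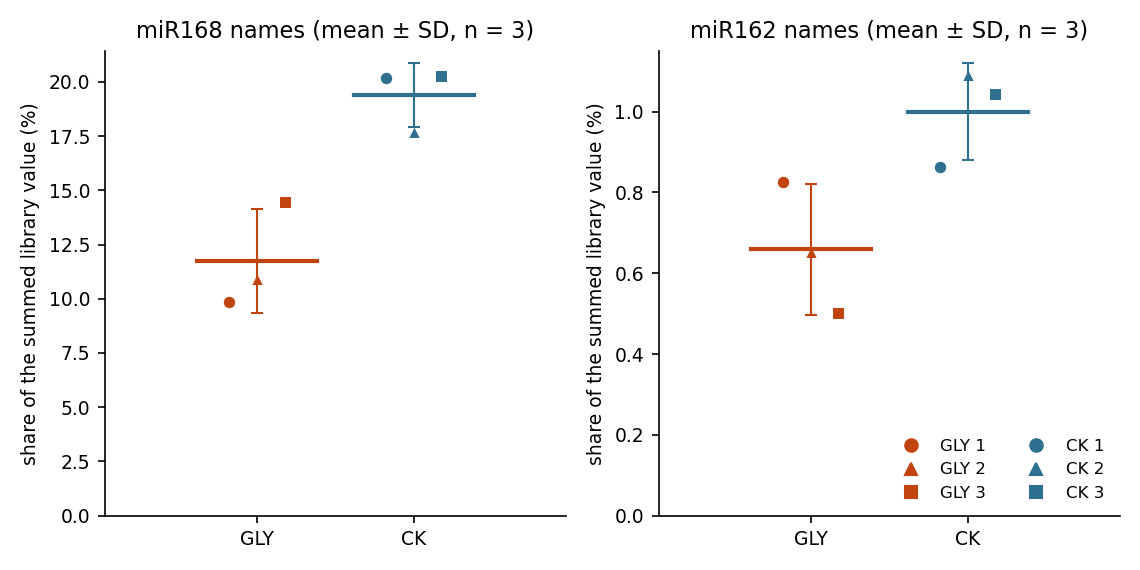
Share (%) of the summed normalized value of each library taken by the miR168 names and by the miR162 names, with a point per library and the mean with SD, n = 3. All GLY libraries (9.85% to 14.5% for miR168, 0.5005% to 0.825% for miR162) lie below all CK libraries (17.7% to 20.3% and 0.864% to 1.09%).

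The arms of the miR168a hairpin were both abundant, with more of the 3p strand in all 6 libraries. The ratio of osa-miR168a-3p_L-3 to osa-miR168a-5p was 2.44, 4.68 and 2.97 in GLY 1, GLY 2 and GLY 3, against 3.03, 2.97 and 3.16 in CK 1, CK 2 and CK 3. The CK libraries lay within a narrow range, and GLY 2 was above and GLY 1 below it. Computed on value + 1, the mean log2 ratio was 1.69 ± 0.48 in GLY and 1.61 ± 0.05 in CK (SD, n = 3 each), with an exact permutation p of 1. The higher mean in GLY rested on GLY 2, and without it the difference was -0.18 in place of 0.08.

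The arms of the miR162 hairpins were far less even. The ratio of osa-miR162a to its p5 strand was 72.3, 187 and 85.3 in GLY 1, GLY 2 and GLY 3, against 153, 173 and 94.6 in CK 1, CK 2 and CK 3. The mean log2 ratio was 6.53 ± 0.67 in GLY and 6.91 ± 0.41 in CK, with an exact permutation p of 0.5 (n = 3 each). The ratio of osa-miR162b to its p5 strand was 26.1, 32.9 and 35.3 in the GLY libraries, against 49.8, 54.9 and 30.8 in the CK libraries. Its mean log2 ratio was 4.78 ± 0.17 in GLY and 5.28 ± 0.39 in CK, with an exact permutation p of 0.2 (n = 3 each). The groups overlapped in both. The denominators are the few p5 reads given above, listed in equal parts for hairpins that share the sequence, so that these reads cannot be given to either hairpin and the level of each ratio depends on the equal division. Over the undivided p5 strand, osa-miR162a and osa-miR162b together were 49.2, 109.7 and 60.3 times as abundant in GLY 1, GLY 2 and GLY 3, against 101.6, 114 and 62.7 times in CK 1, CK 2 and CK 3, and the groups overlapped. Without GLY 2 the differences were -0.77 and -0.51 in place of -0.39 and -0.50.

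The mature sequences of the miR162 hairpins were compared with each other, with osa-miR162a the more abundant in all libraries. The ratio of osa-miR162b to osa-miR162a was 0.362, 0.176 and 0.413 in GLY 1, GLY 2 and GLY 3, against 0.325, 0.317 and 0.325 in CK 1, CK 2 and CK 3. The CK libraries were close to each other, and GLY 2 was the lowest. The mean log2 ratio was -1.74 ± 0.66 in GLY and -1.63 ± 0.02 in CK (SD, n = 3 each), with an exact permutation p of 1. Without GLY 2 the difference was 0.26 in place of -0.11. The wider spread of these ratios in GLY was not tested.

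**Figure D4:**
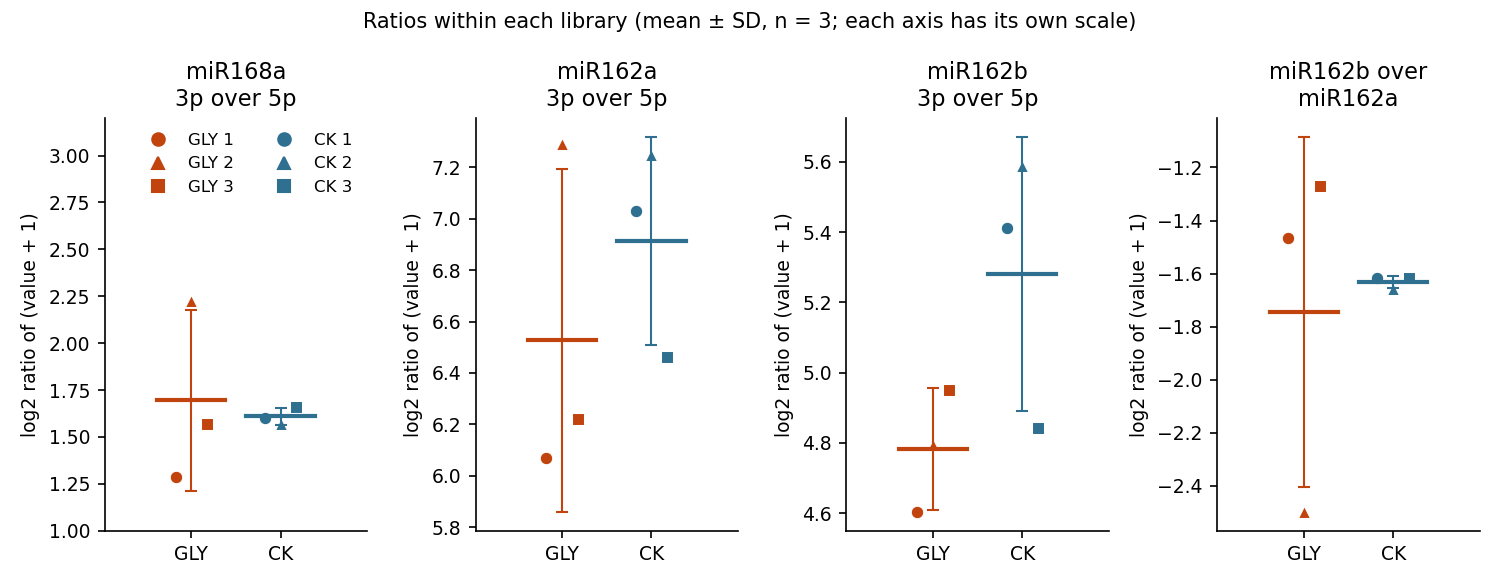
Log2 ratios of value + 1 within each library, for the 3p over the 5p arm of miR168a, miR162a and miR162b and for miR162b over miR162a, with a point per library and the mean with SD, n = 3 (each panel has its own scale). GLY 2 is the highest library for miR168a (2.23) and the lowest for miR162b over miR162a (-2.50), where the CK libraries lie at 1.57 to 1.66 and -1.66 to -1.62.

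The families were also set against each other. The ratio of the miR168 sum to the miR162 sum was 11.9, 16.7 and 28.9 in GLY 1, GLY 2 and GLY 3, against 23.4, 16.2 and 19.4 in CK 1, CK 2 and CK 3. The lowest and the highest ratio were both in GLY. The mean log2 ratio was 4.16 ± 0.64 in GLY and 4.28 ± 0.26 in CK, with an exact permutation p of 0.9 (n = 3 each). The direction of this difference turned without GLY 1 (0.17 in place of -0.12) and without CK 1 (0.01). Without GLY 2 the difference was -0.07.

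Among hairpins with both arms in the table, miR168a stood out by the amount of its lesser arm. There were 77 such hairpins with a mean summed value of at least 10. The 3p arm was higher in all libraries in 23 of them, including miR168a, miR162a and miR162b, and the 5p arm in 35. In the remaining 19 neither arm was higher in all libraries. These include hairpins whose arms did not change order but had a log2 ratio of 0 in some libraries, such as miR1863c in GLY 3. The arms of miR168a were not the most even of the 77 hairpins. Their mean log2 ratio was 1.65, beside -0.67 for miR397b and -0.16 for miR159f. The miR168a hairpin had the highest sum of both arms (a mean of 24337 over 6 libraries) and also the highest lesser arm (5902). Its log2 ratio varied by 0.94 over the libraries, that of miR162a by 1.22 and that of miR162b by 0.99, beside a median of 2.80 over the 77 hairpins, most of which were less abundant. This is a description, with no test.

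**Figure D5:**
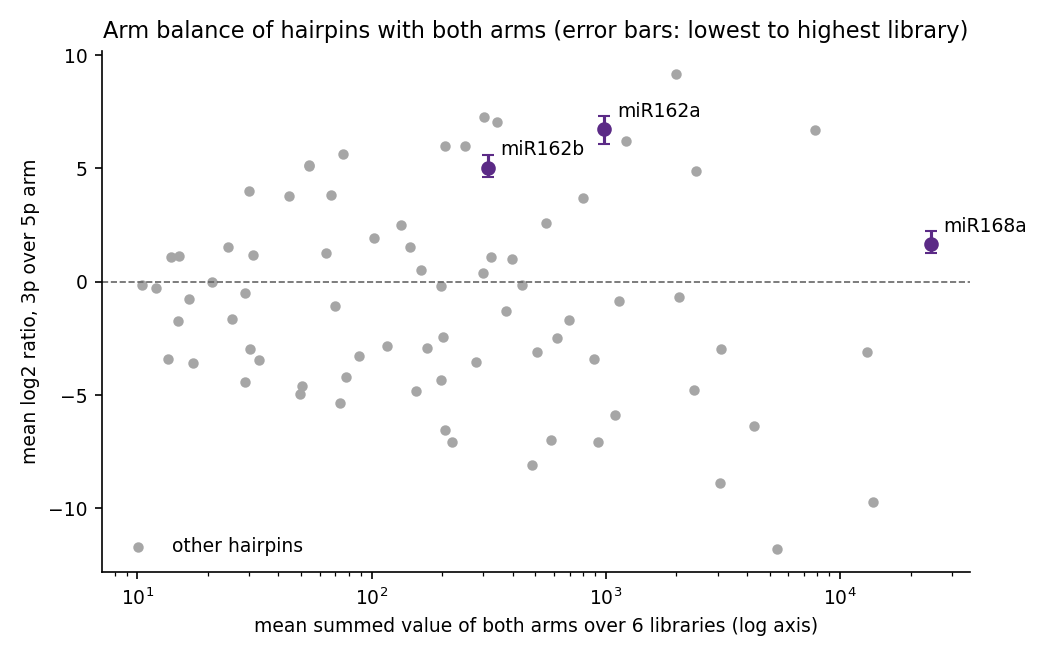
Mean log2 ratio of the 3p over the 5p arm against the mean summed value of both arms (log axis) for the 77 hairpins with both arms, with miR168a, miR162a and miR162b in colour and bars from the lowest to the highest library. The miR168a hairpin lies farthest to the right (24337) and above the line of equal arms (1.65), and the miR162 hairpins lie higher still (6.72 and 5.03).

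Likeness was measured over the libraries. Over the 6 libraries, log2 values of osa-miR168a-3p_L-3 and osa-miR168a-5p correlated at 0.75, and those of osa-miR162a and osa-miR162b at 0.54. Between the families, osa-miR168a-5p and osa-miR162b correlated at 0.74, and the other pairs at 0.19 to 0.30, so pairs within a family were not uniformly more alike than pairs between them. The names most like osa-miR168a-3p_L-3 among the tested names outside the families were osa-miR2871a-5p_R-3 (0.97), osa-MIR1860-p5 (0.91) and bdi-MIR169f-p3 (0.86). Those most like osa-miR162a were the predicted PC-3p-60607_93 (0.91), osa-miR166l-5p_L-1R+4 (0.91) and osa-MIR7695-p5 (0.89). Some of these names were scarce, namely PC-3p-60607_93 (values of 0 to 31.4), osa-miR166l-5p_L-1R+4 (0 to 17.5) and osa-MIR1860-p5 (8.79 to 33.5). The values of 0 were in GLY 3, the lowest library of osa-miR162a. All correlations are Pearson correlations over 6 libraries that all names share. Those with other names were chosen as the highest of many and are given as a description.

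Other miRNAs tied to small RNA pathways were taken as a list, namely miR390 (trigger of TAS3 phasiRNAs with AGO7), miR528 (bound by AGO18 in rice), miR820 (targets the DNA methyltransferase gene DRM2 in rice) and the phasiRNA triggers miR2118 and miR2275. The list also held miR444, which was not analysed here. Of its 16 names 9 were tested, and 1 was called higher and 1 lower. Of all tested names, 7.57% and 3.59% were called in these directions (11.2% in either). The median log2 fold change of the 9 was -0.29, beside -0.46 over all tested names. That median is the value of a miR820 sequence listed under 3 names, so it rests on this repeat. The 9 spread from -4.26 (osa-miR390-3p_L+3) to 2.27 (osa-miR528-5p). The name called higher was osa-miR528-5p, at 4400, 2936 and 4126 in GLY 1, GLY 2 and GLY 3, against 789, 724 and 835 in CK 1, CK 2 and CK 3 (log2 fold change 2.27 ± 0.26, limma adjusted p of 0.00748). The name called lower was osa-miR390-3p_L+3, the strand opposite to the trigger, listed at 0 in all GLY libraries and at 22.0, 20.2 and 13.5 in the CK libraries (limma adjusted p of 0.0145). It passed the filter on low values only through the CK libraries, so that it had to differ between the groups, and its call is no support for a change. The trigger strand osa-miR390-5p was at 725, 285 and 528.2 in the GLY libraries, against 483, 697 and 717 in the CK libraries, with a limma adjusted p of 0.627. The most abundant miR820 names, osa-MIR820a-p3, osa-MIR820b-p3 and osa-MIR820c-p3, share a sequence and were each at 189, 1847 and 232 in the GLY libraries, against 598, 565 and 438 in the CK libraries (limma adjusted p of 0.866). GLY 2 lay above all CK libraries and the other GLY libraries below them.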

How the data were processed

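TruSeq small RNA libraries were sequenced single-end on an Illumina HiSeq. The authors removed adaptors, short reads and reads of other RNA classes with ACGT101-miR (version not given in the sources used here) and mapped the rest to miRBase precursors. The deposited table gives each miRNA a normalized signal in every library (scaling: not given in the sources used here). Of 582 rows, 103 exact repeats were dropped. Of the low values (under 60), 78.5% to 83.5% but not all lay within 0.01 of whole multiples of the value of 1 read. The table was therefore not used as counts. The estimated reads of the member names were whole to 1 decimal, except in some libraries for the p5 names, which share a sequence. Estimated reads are the value divided by that step.

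Log2(value + 1) was fitted with limma 3.58.1 (trend and robust) in R 4.3.3, GLY against CK, for names, and for sums by miRNA number, of at least 10 in at least 3 libraries, with Benjamini-Hochberg adjustment over the whole table. Within-library shares and log2 ratios were compared by exact permutation of the libraries (scipy 1.17.1, two-sided). Duplexes were computed with RNAduplex (ViennaRNA 2.7.2), and an arm was assigned from at least 14 pairs. Alternatives were other pseudocounts (0.5 and 10), filters, scalings (valid read totals came from the study's read summary), limma options, a replicate block and leaving out each library. The fit was tested on simulated data with planted changes far larger than those of the members. This gives no measure of its power for changes as small as theirs.

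The members and the list were chosen with earlier results of these data known. Named were all members, and by rule the called and most abundant names of the list, the 3 names most like the leading member of each family and the names ranked above the leading member. Low estimated reads limit the precision of the scarce names. No genome was used here, so no positions are given.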

Additional observations from a re-analysis of the deposited data

How the results depend on the processing

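None (0) of the tested members was called under the 15 alternatives run for names, and the 4 kept a negative log2 fold change in each. The family sums kept theirs under the 15 run for families. The sets differ in that summing names of a shared sequence was run for names only and the mature arm alone for families only. The adjusted p of the miR168 family ranged from 0.0767 (scaled to the sum of the table) to 0.930 (scaled by valid reads), and that of the miR162 family from 0.182 to 0.954. Leaving out a library moved the log2 fold change of the miR168 family between -0.75 and -0.41 and that of the miR162 family between -0.63 and -0.28. It moved the difference in share of miR168 between -9.02 and -6.72 percentage points and that of miR162 between -0.42 and -0.26, where the smallest p of 2 against 3 libraries is 0.2 in these tests.

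The differences that turned direction were small. Leaving out a library moved that of the miR168a arm balance between -0.18 and 0.29, that of miR162b over miR162a between -0.35 and 0.26 and that of miR168 over miR162 between -0.46 and 0.17. They turned without GLY 2, without GLY 2, and without GLY 1 or CK 1 (0.17 and 0.01). The arm balance of miR162a (-0.77 to -0.16) and miR162b (-0.72 to -0.35) stayed negative, also over the undivided p5 strand (-0.38 and -0.49), an alternative chosen after seeing the data.

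The labels do not say whether equal replicate numbers pair these libraries. Over the tested names, deviations from the group means correlated at -0.39, 0.09 and 0.47 between same-numbered libraries. Between differently numbered libraries they correlated at -0.48 to 0.51. Deviations from the mean of 3 libraries depend on each other, so pairing cannot be decided from them. With the replicate number as a block, 0 members were called, the log2 fold changes of the miR168 and miR162 families stayed -0.58 and -0.46 (adjusted p of 0.184 and 0.710 with limma), and 6 names of the table were called in place of 28. The count of called names in the table also moved by over 1.5 times without GLY 2 (125), CK 1 (2), CK 2 (2), CK 3 (9) or GLY 3 (14) and when scaled by valid reads (12). The count of called families, 8 of 90, was 47 without GLY 2, 5 with no filter, 2 when scaled by valid reads, 4 with the block, and 3 or 4 without any other library. GLY 3 had the fewest estimated miRNA reads, and the p5 strand and aly-miR168a-5p were too scarce to compare.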
